A study of Arabidopsis thaliana with 12 samples.

Results

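The nuclear transcriptome of dcl234 flowers was compared with that of Col-0 flowers. Members were all nuclear gene rows with a mean of at least 1 TPM (the share of all transcripts in a library, scaled to a fixed total) over the 4 bud libraries, which kept 19580 of 37899 nuclear rows, out of 38640 gene rows in all. Of the 18319 rows left out, 9704 were listed at 0 in all 4 bud libraries. dcl234 plants were in the Col-0 ecotype and carried on both copies the mutant alleles dcl3-1, dcl2-1 and dcl4-2t, and Col-0 plants were wild type. Both groups were unopened floral buds from plants grown under the same conditions, with 2 biological replicates each, and 2 Col-0 leaf libraries entered the fits only to estimate the spread. A library of whole buds mixes all floral organs.

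DCL2, DCL3 and DCL4 are ribonucleases that cut long double-stranded RNA into small interfering RNAs. DCL3 makes the siRNAs that guide DNA methylation (RNA-directed DNA methylation, RdDM), DCL4 makes trans-acting siRNAs (tasiRNAs) from TAS precursor transcripts, and DCL2 makes siRNAs that overlap with both. DCL1, which is intact in this mutant, makes most miRNAs. Within the anther of a bud, the tapetum nourishes the microspores, supplies the pollen wall and finally coats the grain, and the maturing pollen stores transcripts used later for pollen tube growth.

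The sequences that matter most here are the sites at which miRNAs start tasiRNA production, because the TAS precursors were among the transcripts that differed. miR173 binds TAS1 and TAS2 transcripts and miR390 binds TAS3 transcripts, and the products are copied into double strands that DCL4 dices. Sequences were read from TAIR10.1 and are given 5′ to 3′ as DNA, with the seed of the miRNA (bases 2 to 8), or the bases of the site that lie opposite it, in capitals.
miR173: tTCGCTTGcagagagaaatcac
TAS1A: gtgatttttctctaCAAGCGAa
TAS1B: gtgatttttctcaaCAAGCGAa
TAS1C: gtgatttttctctaCAAGCGAa
TAS2: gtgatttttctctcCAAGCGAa
miR390: aAGCTCAGgagggatagcgcc
TAS3 site 1: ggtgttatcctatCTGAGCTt
TAS3 site 2: ttgtctatccctcCTGAGCTa
TAS3b site 1: gacgctatcttacCTGAGCTt
TAS3b site 2: ttatgtatccctcTTGAGCTg
The TAS1C site lay at chr2:16537890-16537911 on the minus strand and the TAS3 sites at chr3:5862099-5862119 and chr3:5862343-5862363 on the plus strand. Of 22 positions, 20 of the TAS1C site paired with miR173. The stretch opposite the seed was the same in all TAS1 and TAS2 sites, and the same in all TAS3 and TAS3b sites except TAS3b site 2.

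The libraries differed in make-up before any gene was considered. Rows in the 2 annotated ribosomal RNA gene regions held 15.3 and 6.27% of all TPM in dcl234 flowers, against 41.3 and 29.1% in Col-0 flowers, and plastid genes held 9.1 and 7.92% against 16 and 10.2%. The median member was 0.50 higher on the log2 scale in dcl234 flowers as deposited, or 1.42-fold. TPM is a share of a fixed total, and whether the shares above account for this shift was not tested. Levels below are therefore TPM as deposited, whereas log2 differences are dcl234 minus Col-0 after each library was divided by its median ratio to the other libraries, which places the median member at 0.005. All directions are thus relative to the median gene, and scaling to the ERCC spike-ins, which held 0.151 and 0.0655% of TPM in dcl234 flowers and 0.475 and 0.359% in Col-0 flowers, moved that median to 2.34. Differences are given with their standard error (SE), and a gene is called where limma's adjusted p was below 0.05.

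The defining transcripts of floral tissue were present in every bud library. AP1, AP3, PI, AG and SEP3, the transcription factors that specify floral organs, stood between 17.03 and 294.56 TPM in the 4 bud libraries. LFY was low, at 2.26 and 2.59 TPM in dcl234 flowers, against 0.37 and 1.64 TPM in Col-0 flowers.

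Relative to the median gene, 71 members were called higher in dcl234 flowers (0.363% of those tested) and 177 lower (0.904%). All 248 differed by at least 2-fold, and in all 248 both dcl234 libraries lay outside the range of both Col-0 libraries, in TPM as deposited and after scaling. Among all members, both dcl234 libraries lay above both Col-0 libraries after scaling in 26.0% and below them in 25.2%. Calling genes by adjusted p itself selects for such separation. On TPM as deposited, 296 members were called higher (1.51%) and 114 lower (0.582%). All 71 higher calls and 83 of the 177 lower calls were then made again, and higher calls were 72.2% of calls in place of 28.6%. The calls rest on 2 libraries a group. The numbers called higher and lower were 7 and 10 without Col-0 replicate 1, 13 and 30 without Col-0 replicate 2, 47 and 5 without dcl234 replicate 1, and 56 and 5 without dcl234 replicate 2. Without leaf replicate 1 they were 127 and 256, and without leaf replicate 2 they were 131 and 253. Of 64 called genes followed through every alternative, 5 were called whichever bud library was left out (AT2G01422, AT1G64795, U6.3, AT2G07786 and AT2G08420) and 49 were called in none of these 4 fits, although each kept its direction in them.

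**Figure D1:**
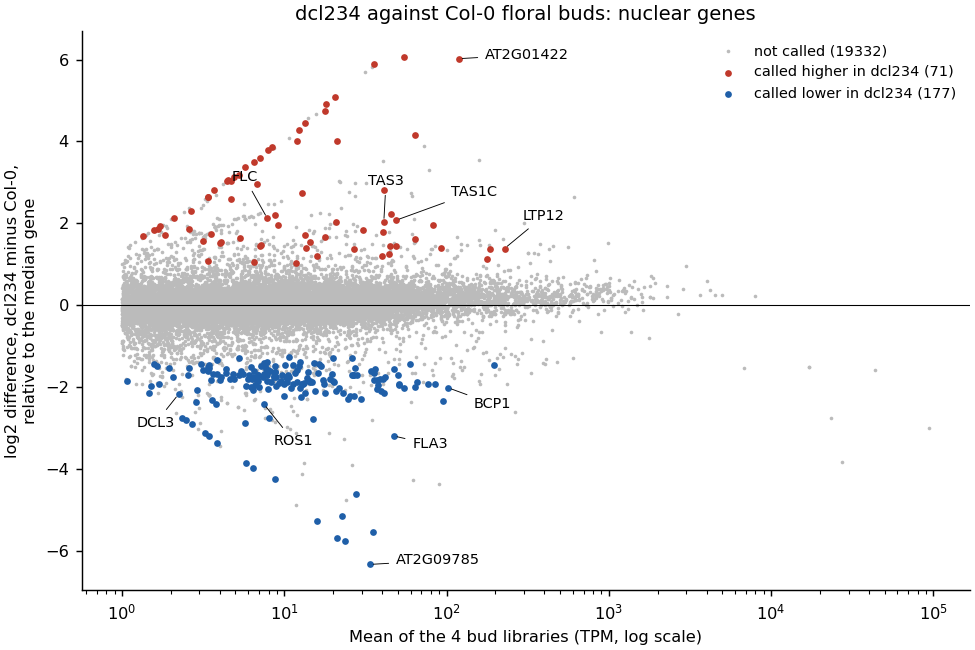
Each point is a nuclear gene. The horizontal axis is its mean TPM over the 4 bud libraries on a log scale and the vertical axis its log2 difference between dcl234 and Col-0 flowers relative to the median gene. The 71 genes called higher and the 177 called lower are coloured, and the points along the slanting upper and lower edges are genes listed at or near 0 in a whole group.

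Among the mutated genes, DCL3 was called lower. It had 0.40 and 0.37 TPM in dcl234 flowers, against 3.85 and 4.30 TPM in Col-0 flowers. The groups did not overlap, and the difference was -2.18 ± 0.27 (adjusted p = 0.0317). DCL2 had 1.04 and 1.60 TPM in dcl234 flowers and 2.07 and 3.26 TPM in Col-0 flowers, and DCL4 had 3.12 and 2.87 TPM in dcl234 flowers and 3.20 and 4.51 TPM in Col-0 flowers. Neither passed the test, with differences of -1.02 ± 0.25 (adjusted p = 0.189) and -0.71 ± 0.18 (adjusted p = 0.208). Reads of DCL2 and DCL4 were thus still counted in the mutant, and a gene-level TPM does not show whether a transcript is intact. DCL1 had 3.42 and 2.90 TPM in dcl234 flowers and 2.13 and 3.01 TPM in Col-0 flowers, and its difference of -0.19 ± 0.19 turned positive (0.23) on TPM as deposited.

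DCL3 was the single call among 34 tested genes of the small RNA machinery, whose median difference was -0.07. The ARGONAUTE proteins AGO1 and AGO4 (-0.17 ± 0.24 and -0.07 ± 0.21), which load miRNAs and RdDM siRNAs, and the RNA-dependent RNA polymerases RDR2 and RDR6 (-0.07 ± 0.27 and -0.07 ± 0.18), which supply double-stranded substrates to DCL3 and DCL4, were not called. The largest differences below the threshold after DCL2 and DCL4 were those of AGO9 and KTF1, both at -0.63, with adjusted p of 0.211 and 0.364.

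Among 12 tested genes for DNA methylation and demethylation, ROS1 was called lower and the other 11 were not called. ROS1, a DNA glycosylase that removes methylated cytosines, is known in Arabidopsis to fall when RdDM is lost. It stood at 2.60 and 2.31 TPM in dcl234 flowers, against 10.80 and 14.19 TPM in Col-0 flowers, without overlap and with a difference of -2.42 ± 0.29 (adjusted p = 0.0317). The related demethylases DME and DML2 both differed by -0.08, and the maintenance methyltransferases MET1 and CMT3 by -0.26 and 0.07. SDC and FWA, which RdDM silences, were below the 1 TPM filter: SDC had 0.78 and 0.67 TPM in dcl234 flowers, against 0.00 and 0.08 TPM in Col-0 flowers, and FWA was at or below 0.08 TPM in every bud library. QQS, the tested member of this list, overlapped between groups (-0.16 ± 0.52, adjusted p = 0.954).

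The TAS precursors stood higher in dcl234 flowers. Of 12 tested TAS loci and tasiRNA targets, 3 were called higher, against 0.363% of all members, and none lower. The list median was 1.04, against 0.005 for all members, and in 11 of the 12 both dcl234 libraries lay above both Col-0 libraries after scaling, as in 26.0% of all members. TAS3, the source of the tasiRNAs against auxin response factors, had 67.88 and 73.30 TPM in dcl234 flowers, against 8.08 and 14.85 TPM in Col-0 flowers (2.03 ± 0.16, adjusted p = 0.013). TAS1C had 82.67 and 85.76 TPM in dcl234 flowers, against 10.19 and 16.09 TPM in Col-0 flowers (2.07 ± 0.25, adjusted p = 0.0317). TAS3b had 24.98 and 21.96 TPM in dcl234 flowers, against 0.66 and 3.55 TPM in Col-0 flowers (2.74 ± 0.40, adjusted p = 0.0464). Each of these precursors was thus several-fold apart between groups with closely matched replicates in the mutant. The Col-0 replicates of TAS3b were less closely matched, at 0.66 and 3.55 TPM. Its difference ran from 2.14 to 3.34 when single bud libraries were left out. TAS1A, TAS2 and TAS1B, which carry the miR173 site shown above, differed by 1.39 ± 0.35, 1.17 ± 0.27 and 0.82 ± 0.19 and were not called (adjusted p from 0.169 to 0.215), although all 3 were called on TPM as deposited. Summed over the 12 tested loci and targets, the level was 394 and 423 TPM in dcl234 flowers, against 99.3 and 157 TPM in Col-0 flowers.

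None of the tasiRNA targets in the same list was called relative to the median gene, although ARF4 and HTT1 were called on TPM as deposited (adjusted p = 0.0301 and 0.00658). ARF4, an auxin response factor of organ polarity, had 14.30 and 15.52 TPM in dcl234 flowers, against 3.85 and 6.26 TPM in Col-0 flowers, a difference of 0.91 ± 0.17 (adjusted p = 0.0872). ARF3 (also ETT) differed by 0.45 ± 0.18 and ARF2 by 0.02 ± 0.22. HTT1, a heat tolerance gene targeted by TAS1 tasiRNAs, had 4.75 and 5.09 TPM in dcl234 flowers, against 0.11 and 0.95 TPM in Col-0 flowers (1.73 ± 0.30, adjusted p = 0.0774). HTT2, of the same family, differed by 0.75 ± 0.16 (adjusted p = 0.138), and TAS4 was below the filter, at 0.18 TPM or less.

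**Figure D2:**
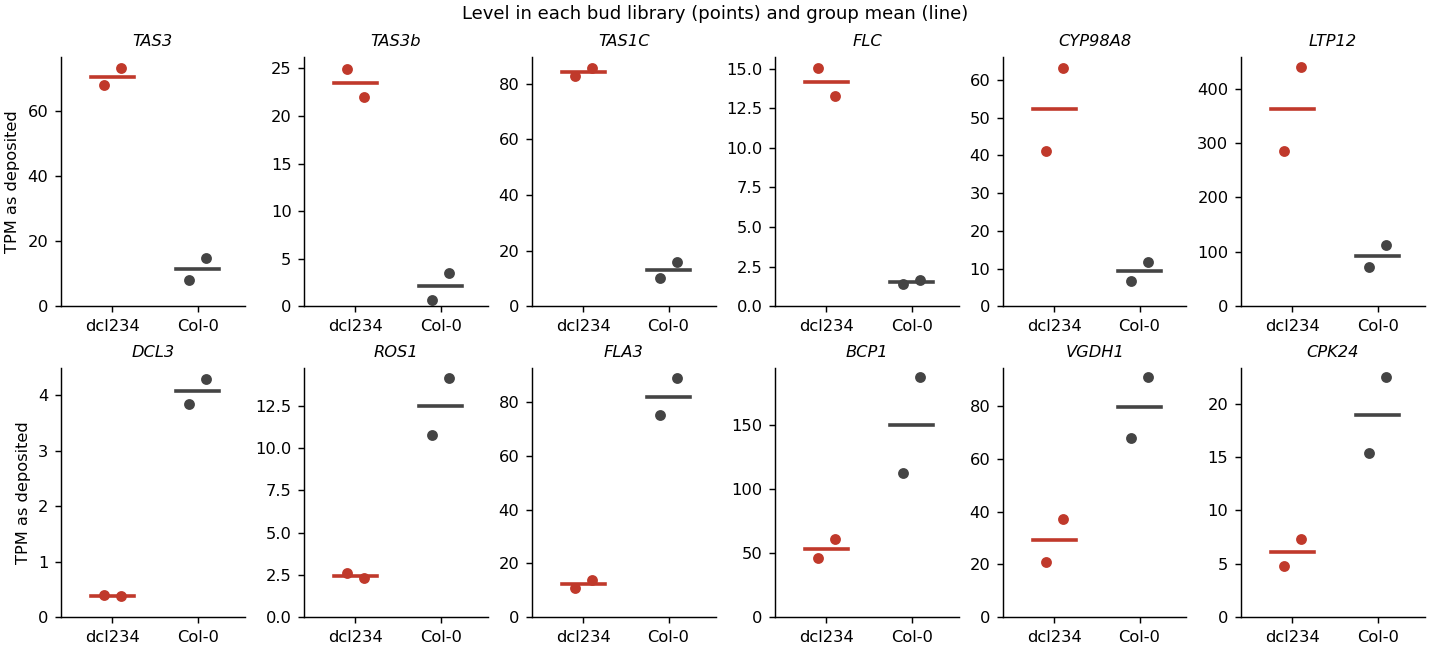
Each panel shows a gene, with TPM as deposited on a vertical axis that starts at 0, points for the single bud libraries and a line for the mean of the group. TAS3, TAS3b, TAS1C, FLC, CYP98A8 and LTP12 stood above the Col-0 range in both dcl234 libraries, and DCL3, ROS1, FLA3, BCP1, VGDH1 and CPK24 below it.

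FLC, a MADS-box repressor of flowering, was called higher. It had 15.04 and 13.26 TPM in dcl234 flowers, against 1.42 and 1.68 TPM in Col-0 flowers (2.12 ± 0.21, adjusted p = 0.023). FLC lies wholly within the antisense row AT5G01675, whose values of 1.00 and 2.34 TPM in dcl234 flowers and 0.36 and 2.96 TPM in Col-0 flowers overlapped. In a list of 10 FLC relatives and flowering-time genes, chosen after the FLC values were seen, FLC was the single call. Its relatives FLM and MAF2 to MAF5 differed by between -0.23 and 0.34, and SOC1, which FLC represses, by 0.06 ± 0.24. IRT1, the root iron importer, singled out in the same way, was also higher, at 11.80 and 12.20 TPM in dcl234 flowers, against 2.22 and 2.50 TPM in Col-0 flowers (1.47 ± 0.19, adjusted p = 0.0343). The regulators of iron uptake FIT, bHLH38, bHLH39, bHLH100 and bHLH101 and the iron reductase FRO2 were all below the filter.

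Of the 71 higher calls, 40 were protein-coding genes, against 18219 of all 19580 members. The following, which act in the tapetum or on the pollen surface, were chosen after their values were seen. SHT, which joins hydroxycinnamic acids to spermidine in the tapetum, had 63.35 and 93.82 TPM in dcl234 flowers, against 14.71 and 23.54 TPM in Col-0 flowers (1.43 ± 0.17, adjusted p = 0.0317). CYP98A8, a cytochrome P450 that hydroxylates the SHT product for the pollen wall, had 41.09 and 63.22 TPM in dcl234 flowers, against 6.81 and 11.75 TPM in Col-0 flowers (1.84 ± 0.20, adjusted p = 0.0265). CYP98A9, its neighbour and partner in this step, differed by 2.04 ± 0.25 (adjusted p = 0.0317). It shares 67.8% of its span with AT1G09487 and NRP1 on the other strand. TSM1, a tapetal methyltransferase, had 144.16 and 254.33 TPM in dcl234 flowers, against 40.07 and 49.79 TPM in Col-0 flowers, and stayed just short of the threshold (1.5 ± 0.24, adjusted p = 0.0601).

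Further higher calls, chosen in the same way, were these. LTP12, a lipid transfer protein of the tapetum, had 284.64 and 439.54 TPM in dcl234 flowers, against 72.55 and 113.16 TPM in Col-0 flowers (1.38 ± 0.18, adjusted p = 0.0365). ATA27, a tapetal glycosyl hydrolase, had 239.85 and 344.44 TPM in dcl234 flowers, against 57.48 and 95.21 TPM in Col-0 flowers (1.37 ± 0.17, adjusted p = 0.0317). AT1G06260, a cysteine protease, had 59.44 and 90.72 TPM in dcl234 flowers, against 4.43 and 9.08 TPM in Col-0 flowers (2.80 ± 0.23, adjusted p = 0.0136). It lies wholly within AT1G06265 on the other strand, and reads over it were not assigned by strand. Rises were also called for the oleosin AT5G07600 (1.37), the GDSL lipase AT1G20130 (1.13), the transcription factors NAC025 (1.44) and bZIP58 (1.72), the P450 CYP86C3 (1.2) and the prenyltransferases cPT8 and cPT9 (1.43 and 1.4). By the wording of their annotated products, 2 of 10 tested oleosins, 1 of 5 caleosins, 2 of 60 lipid transfer proteins, 3 of 108 cytochromes P450 and 2 of 55 GDSL lipases were called higher, against 0.363% of all members, and 1 GDSL lipase was called lower. The medians of these families lay between 0.02 and 0.71, and 5 oleosins were above and 5 below the median gene. The families were not part of the gene lists and hold genes seen among the calls, so their shares are not independent of the calls.

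The lists of tapetum and pollen coat genes held no call. All 7 pollen coat genes, the glycine-rich oleosins and lipases laid on the grain, were higher by 1.1 to 1.62 (median 1.43) but missed the threshold, with adjusted p from 0.0663 to 0.181. All 7 were called on TPM as deposited. GRP17, an oleosin needed for pollen hydration, had 495.90 and 865.13 TPM in dcl234 flowers, against 125.17 and 227.61 TPM in Col-0 flowers (1.37 ± 0.24, adjusted p = 0.0786). The 18 tested genes of tapetum and pollen wall had a median of 0.25, with AMS (0.28 ± 0.17), the sporopollenin enzymes ACOS5 (0.35 ± 0.15) and CYP703A2 (0.22 ± 0.16), ATA7 at the upper end (0.97 ± 0.22, adjusted p = 0.166) and CALS5, a callose synthase, at the lower end (-0.69 ± 0.27, adjusted p = 0.45). The summed TPM of the 7 coat genes was 2070 and 3740 in dcl234 flowers, against 564 and 1030 in Col-0 flowers, and that of the 18 tapetal genes 579 and 757, against 255 and 365.

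Transcripts of maturing pollen stood lower in dcl234 flowers relative to the median gene, whereas scaling to the ERCC total gave the list a median of 0.92, with 2 genes called higher and none lower, beside 2.34 for all members. All 11 tested genes of the late pollen list were below the median gene, at a median of -1.54, and in all 11 both dcl234 libraries lay below both Col-0 libraries after scaling, as in 25.2% of members. VGDH1 and ANX2 were called. VGDH1, a pectin methylesterase close to VGD1 of pollen tubes, had 20.81 and 37.27 TPM in dcl234 flowers, against 68.09 and 91.16 TPM in Col-0 flowers (-2.03 ± 0.28, adjusted p = 0.0388). ANX2, a receptor kinase that keeps the growing pollen tube intact, had 1.39 and 2.15 TPM in dcl234 flowers, against 4.01 and 6.13 TPM in Col-0 flowers (-1.54 ± 0.20, adjusted p = 0.0348). The most abundant pollen genes of the list were close to the threshold: VGD1 differed by -1.70 ± 0.28 (adjusted p = 0.0663), AGP11 by -1.92 ± 0.32 (adjusted p = 0.0669) and AGP6 by -1.69 ± 0.30 (adjusted p = 0.0839). PPME1, with 85.43 and 163.74 TPM in dcl234 flowers and 183.92 and 147.71 TPM in Col-0 flowers, overlapped in TPM as deposited and differed by -1.05 ± 0.37 (adjusted p = 0.405). ANX1 (-0.38 ± 0.25) and MYB101 (-0.39 ± 0.24) also overlapped in TPM as deposited, where their differences were 0.04 and 0.12. MYB97 and MYB120 were at 0.24 TPM or less in every bud library. On TPM as deposited the list median was -1.12 and neither VGDH1 nor ANX2 was called.

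The summed TPM of the 11 late pollen genes was 383 and 714 in dcl234 flowers, against 994 and 1190 in Col-0 flowers. Among the 177 lower calls, 131 (74%) had a mean below 1 TPM in Col-0 leaves. So had 51 of the 71 higher calls (71.8%) and 20.5% of all members. The leaf libraries helped set the spread used in the test, so these shares are not independent of how genes were called. Whether this favoured calls of genes low in leaves was not tested. In whole buds, fewer cells of a type and less RNA per cell cannot be told apart. The part of these pollen and tapetum markers in the gene differences was not tested.

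**Figure D3:**
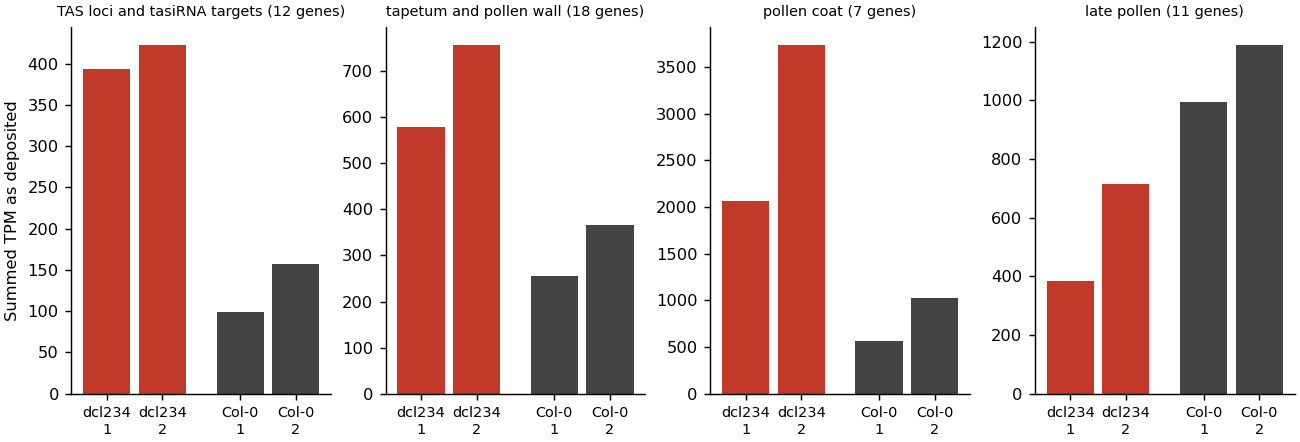
Bars give the summed TPM as deposited of the tested genes of 4 lists in each bud library, with the dcl234 libraries to the left of the Col-0 libraries and axes that start at 0. The sums of TAS loci and targets, tapetum and pollen coat were higher in both dcl234 libraries, and the sum of late pollen genes was 383 and 714 TPM in dcl234 flowers, against 994 and 1190 TPM in Col-0 flowers.

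Protein-coding genes made up 156 of the 177 lower calls, against 18219 of all 19580 members. Those that follow, known from pollen or the pollen tube or its wall, were chosen after their values were seen. FLA3, a fasciclin-like arabinogalactan protein of pollen, had 10.76 and 13.90 TPM in dcl234 flowers, against 75.16 and 88.90 TPM in Col-0 flowers (-3.20 ± 0.42, adjusted p = 0.0343). It shares 96.5% of its span with AT2G24440 on the other strand, which was not called (0.49 ± 0.19, adjusted p = 0.463). The leucine-rich repeat extensins AT3G19020 and AT4G33970 followed: AT3G19020 had 4.18 and 4.80 TPM in dcl234 flowers, against 23.42 and 27.83 TPM in Col-0 flowers (-2.79 ± 0.17, adjusted p = 0.0102). BCP1, a small pollen protein, had 45.75 and 60.93 TPM in dcl234 flowers, against 112.66 and 187.68 TPM in Col-0 flowers (-2.02 ± 0.17, adjusted p = 0.0149).

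Signalling and transport genes were also among those chosen. CPK24, a calcium-dependent protein kinase, had 4.76 and 7.35 TPM in dcl234 flowers, against 15.43 and 22.51 TPM in Col-0 flowers (-2.02 ± 0.18, adjusted p = 0.0185), and CPK17, of the same family, differed by -1.98 ± 0.20 (adjusted p = 0.0243). CHX23, a cation/H+ exchanger, had 4.92 and 5.33 TPM in dcl234 flowers, against 14.75 and 25.94 TPM in Col-0 flowers (-2.26 ± 0.16, adjusted p = 0.0122). The hexose transporter STP11 (-2.00), the COBRA-like protein COBL10 (-1.98), the signal peptide RALFL26 (-2.14), the pectate lyase AT59 (-2.09), the pectin lyase-like AT5G48140 (-2.29) and the phosphatase PTEN1 (-1.78) were also called. By the wording of their annotated products, 13 of 142 tested pectin-modifying proteins, 21 of 935 kinases, 2 of 26 calcium-dependent protein kinases, 2 of 19 RALF-like peptides, 2 of 12 cation/H+ exchangers and 2 of 15 EXO70 exocyst subunits were called lower, against 0.904% of all members, and none of these families held a higher call. On TPM as deposited the lower calls were 9 pectin-modifying proteins, 6 kinases, 2 calcium-dependent protein kinases, 0 RALF-like peptides, 2 exchangers and 2 EXO70 subunits, and 1 pectin-modifying protein, 1 kinase and 1 EXO70 subunit were called higher. All 12 exchangers were below the median gene. These families were not part of the gene lists and hold genes seen among the calls, so their shares are not independent of the calls.

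**Figure D4:**
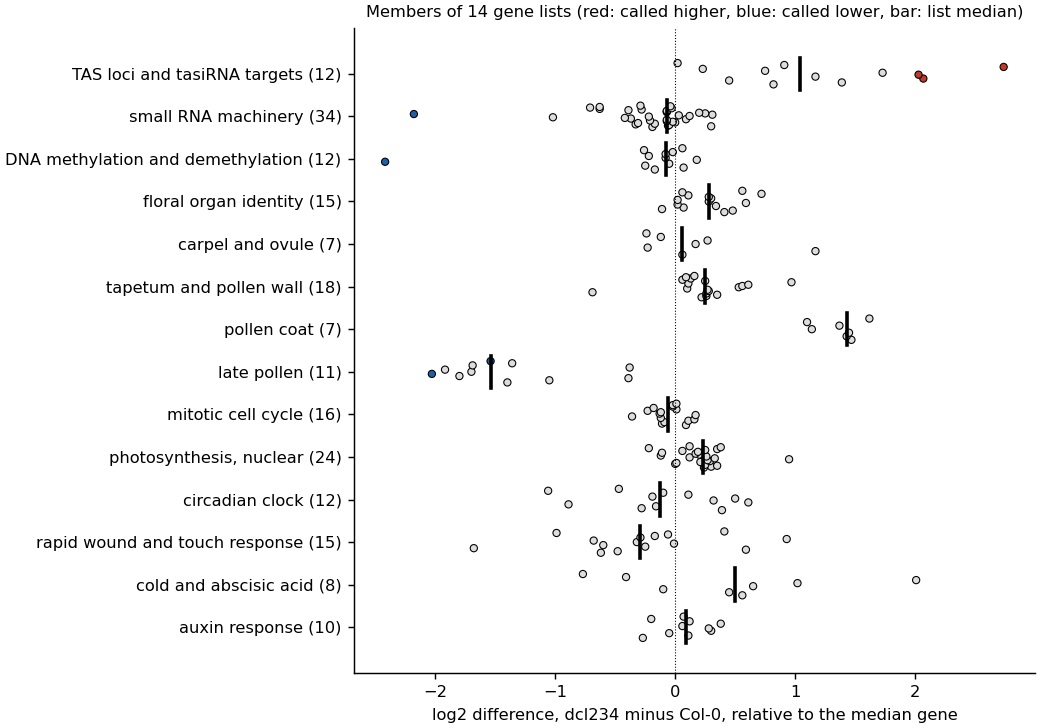
Each point is a tested gene of a list, placed by its log2 difference between dcl234 and Col-0 flowers relative to the median gene, with the number of tested genes in brackets and a bar at the list median. Pollen coat genes (median 1.43) and TAS loci and targets (1.04) lie to the right, late pollen genes (-1.54) to the left, and most other lists around 0.

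The 12 largest rises and 12 largest falls were mostly not messenger RNAs: 20 of the 24 were annotated as noncoding RNAs or a pseudogene. By RefSeq coordinates, 15 spanned less than 300 bases. Among all 19580 members, 18219 were annotated as protein-coding. Among the 12 rises, 9 were listed at 0 in both Col-0 libraries, and among the 12 falls, 9 were listed at 0 in both dcl234 libraries. For such rows no fold is given. AT2G01422, a noncoding RNA of 795 bases at chr2:183940-184734 that overlaps no other gene, had 217.05 and 254.32 TPM in dcl234 flowers, against 0.87 and 2.84 TPM in Col-0 flowers (6.02 ± 0.26, adjusted p = 0.00207). It was at 0.00 TPM in both leaf libraries. AT4G04223, another noncoding RNA, had 108.51 and 140.55 TPM in dcl234 flowers, against 4.21 and 3.54 TPM in Col-0 flowers (4.15 ± 0.28, adjusted p = 0.0111), but 79.2% of its 31-base words also occur elsewhere in the nuclear genome. AT5G23115 had 24.27 and 58.75 TPM in dcl234 flowers, against 0.61 and 1.04 TPM in Col-0 flowers. It spans 29 bases by RefSeq coordinates, and the Araport11 model that was quantified may differ in length.

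The other rises came from rows at 0 in Col-0 flowers. AT1G64795, an uncharacterized short protein-coding row, had 72.49 and 69.76 TPM in dcl234 flowers and lies wholly within ILA on the opposite strand. AT1G07983, which lies within GAMMA-H2AX, had 33.09 and 49.61 TPM, and U6.3, a spliceosomal RNA, 34.85 and 37.00 TPM in dcl234 flowers. U6.3 lies within NARA5 and 98.6% of its 31-base words occur elsewhere in the nuclear genome, as do 89.8% of those of the snoRNA AT4G06315, so neither rise can be placed at its locus. The snoRNAs AT2G20722, AT4G06315, AT5G00760, AT4G07075 and AT4G08175 stood at between 13.33 and 181.60 TPM in dcl234 flowers. They span 75 to 101 bases by RefSeq coordinates. AT2G20722 and AT5G00760, both of 75 bases, had the same 35.86 TPM in dcl234 replicate 1. Values of such short rows may rest on few reads, and TPM keeps no read depth to show how many. AT5G00760, AT4G07075 and AT4G08175 lie wholly within other genes on the same strand, so their reads cannot be told apart from those of these genes. AT2G20722 was the most uneven between replicates, at 35.86 and 181.60 TPM. Taking gene types whole, 11 of 227 tested snoRNAs were called higher and none lower (median 0.57), and 5 of 57 miRNA precursors were called higher and 1 lower (median 0.95), against 0.363% higher and 0.904% lower of all members. On TPM as deposited, 24 snoRNAs were called higher and 1 lower, and 8 miRNA precursors higher and 1 lower. All 11 snoRNAs called higher relative to the median gene were at 0 in both Col-0 libraries. They passed the 1 TPM filter through dcl234 flowers alone, so their share is not independent of the filter.

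The miRNA precursors called higher were all at 0 in both Col-0 libraries, so they passed the 1 TPM filter through dcl234 flowers alone. MIR156j, whose row lies inside SPL9 on the opposite strand, had 8.51 and 39.38 TPM in dcl234 flowers, MIR158a 15.73 and 10.14 TPM, MIR398b 6.71 and 14.45 TPM, MIR780 4.96 and 3.35 TPM and MIR775 2.79 and 2.61 TPM. MIR398b also lies wholly within a gene on the other strand (AT5G14550), and 97.7% of MIR780 lies within AT4G14810, so their reads cannot be told apart from those of these genes. Their products guide the silencing of other transcripts, and the mature miRNAs were not measured in these libraries. SPL9 itself was not called (-0.14 ± 0.18). Of 102 tested pseudogenes, AT5G35935 and AT4G04293 were called higher and none lower, against 0.363% higher and 0.904% lower of all members. AT5G35935 had 5.13 and 5.37 TPM in dcl234 flowers, against 0.07 and 0.04 TPM in Col-0 flowers (2.30 ± 0.21, adjusted p = 0.0188).

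Most of the 12 largest falls shared their place in the genome with another gene, so that without strand information their reads cannot be told apart. AT2G09785, at 0 in dcl234 flowers and 81.00 and 53.31 TPM in Col-0 flowers, lies within UBQ6, which had 516.34 and 526.58 TPM in dcl234 flowers and 253.04 and 380.54 TPM in Col-0 flowers and was not called. AT2G08420, at 0 in dcl234 flowers and 24.58 and 38.68 TPM in Col-0 flowers, lies within VAR2 (-0.12 ± 0.33). AT4G20362, with 2.98 and 1.33 TPM in dcl234 flowers and 57.10 and 49.04 TPM in Col-0 flowers (-4.61 ± 0.50, adjusted p = 0.0265), is covered by RABE1b and a second gene. RABE1b went the other way without a call, with 204.80 and 229.04 TPM in dcl234 flowers and 65.15 and 109.52 TPM in Col-0 flowers (0.77 ± 0.17, adjusted p = 0.148). AT2G09250, with 0.00 and 1.73 TPM in dcl234 flowers and 54.04 and 35.00 TPM in Col-0 flowers, lies within RR3. RR3 stood at 32.60 and 18.63 TPM in dcl234 flowers and 5.33 and 3.42 TPM in Col-0 flowers and was not called.

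The remaining falls included repeated sequence. AT2G07786, at 0 in dcl234 flowers and 30.22 and 63.85 TPM in Col-0 flowers, has 86.3% of its 31-base words also in an organelle genome. MIR5642b, at 0 in dcl234 flowers and 48.74 and 35.18 TPM in Col-0 flowers, lies almost wholly within AT2G01008 in the annotated ribosomal RNA gene region of chromosome 2, and 84.5% of its words occur elsewhere in the nuclear genome. AT1G24996 (2.74 and 0.00 TPM in dcl234 flowers, 65.92 and 72.49 TPM in Col-0 flowers) and AT1G27565 (0 in dcl234 flowers, 8.74 and 16.79 TPM in Col-0 flowers) had 100% and 68.5% of their words elsewhere. AT2G08330, AT2G04755, AT4G03895 and AT4G07285 were at 0 in dcl234 flowers and between 5.89 and 27.25 TPM in Col-0 flowers.

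The CYP98A8 locus held calls in both directions. AT1G74545, a long noncoding RNA on the strand opposite to CYP98A8 that covers the whole of it, had 0.50 and 0.48 TPM in dcl234 flowers, against 4.62 and 5.75 TPM in Col-0 flowers (-2.38 ± 0.21, adjusted p = 0.017). CYP98A8 was called higher, and reads over the shared stretch were not assigned by strand.

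Relative to the median gene, the other lists gave no call. None of the 15 tested floral organ identity genes was called (median 0.28), the largest difference being that of the petal and stamen gene PI (0.72 ± 0.14, adjusted p = 0.11). CRC, which patterns the carpel and forms nectaries, stood at 39.91 and 44.30 TPM in dcl234 flowers, against 8.17 and 17.59 TPM in Col-0 flowers, and missed the threshold (1.17 ± 0.20, adjusted p = 0.0734), but was called on TPM as deposited (adjusted p = 0.0185). The 16 mitotic genes (median -0.06), 24 nuclear photosynthesis genes (0.23), 12 clock genes (-0.13), 15 rapid wound and touch genes (-0.29) and 8 cold and abscisic acid genes (0.50, led by KIN1 at 2.01 ± 0.44 with adjusted p = 0.15) held no call either, nor did 198 pentatricopeptide repeat genes (-0.08). Calls were spread over all 5 chromosomes, from 9 higher and 41 lower of 3915 members on chromosome 3 to 21 higher and 38 lower of 5109 on chromosome 1.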

How the data were processed

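RNA of unopened floral buds and leaves was made into poly(A) libraries from total RNA with ERCC spike-ins and sequenced as read pairs. The authors ran RSEM (version not given in the sources used here) on the read pairs with Araport11 gene models on TAIR10, plus the spike-in sequences, and deposited TPM per gene. The protocol cited for the libraries does not mark strand. TPM keeps no read depth, so no counting interval is given, and values of short rows may rest on few reads. Gene names, types and coordinates came from RefSeq TAIR10.1, matched by locus ID. The small RNA tables were not used here.

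Each library was divided by the median ratio of its genes to the geometric mean, and log2(scaled TPM + 1) was fitted with limma 3.58.1 (R 4.3.3) with a mean-variance trend on all 6 mRNA-Seq libraries, over 19881 rows with a mean of at least 1 TPM, organelle and other rows included, with Benjamini-Hochberg adjustment over all of them. Differences understate the change of low genes. On simulated data for this comparison, 71 of 100 genes changed by 1 and 97 of 100 changed by 2 on the log2 scale were recovered among 19881 genes, with 8 false calls. The simulated noise was normal with a spread smoothed on level, so genes whose spread departs from that trend are not covered by these shares. Recovery with spreads that differ between genes of similar level, as the measured ones do, was not tested. The shares are thus not a recovery rate for the measured genes. In the main fit the smallest higher call was 1.03, whereas the 7 pollen coat genes, at 1.10 to 1.62, were not called. Replicates were checked across genes (r = 0.972 in dcl234 and 0.956 in Col-0 flowers), are labelled biological, and p-values measure the spread between these samples. Genes named by rule were the 12 largest rises and falls among calls without overlap, DCL1 to DCL4 and the called and leading members of gene lists. Other genes were named for their function after their values were seen. Members and lists were chosen with earlier results of these data known. Other scalings, pseudocounts, filters, models and left-out libraries were tried. Sequence copies were counted as exact words of 31 bases on both strands. A result on a withheld item is not reported here.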

Additional observations from a re-analysis of the deposited data

How the results depend on the processing

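The numbers called higher and lower were 71 and 177. They were 296 and 114 on TPM as deposited, 148 and 75 scaled to the nuclear sum, 17581 and 56 scaled to the ERCC total (which moved the median member to 2.34), 115 and 266 after quantile normalization, 23 and 23 with a pseudocount of 0.1, 44 and 117 with a minimum of 5 TPM, 27 and 28 with no filter, 123 and 253 with the 4 bud libraries alone, and 75 and 187 without the mean-variance trend. Leaving out each library in turn gave between 7 and 131 higher and between 5 and 256 lower. With a replicate block the numbers were 19 and 20. Between dcl234 and Col-0 buds, the deviations of same-numbered libraries had a correlation of 0.01. The paper took Col-0 buds and leaves from the same plants, and the main fit did not model that pairing.

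The genes followed through these alternatives kept their directions apart from the following. DCL1 was 0.23, 0.17 and 1.83 on TPM as deposited, on the nuclear sum and on the ERCC total. On the ERCC total DCL2 was 0.76, DCL4 1.38, VGDH1 0.55, ANX2 0.45, CHX23 0.11, AT59 0.36, AT5G48140 0.22, BCP1 0.59, CPK24 0.38, CPK17 0.20, STP11 0.19, COBL10 0.33, RALFL26 0.42 and PTEN1 0.47. The cause was not tested. Differences between rows below about 1 TPM, and folds of rows listed at 0, could not be resolved.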
